A study of Rattus norvegicus with 10 samples.

Results

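Astrocytes are the glial cells that ensheathe synapses and blood vessels, and 10 genes used to mark them were followed in the prefrontal cortex of rats: Aqp4, S100b, Gfap, Gja1, Gjb6, Aldh1l1, Aldoc, Apoe, Sox9 and Fgfr3. They were found by symbol in a table of 16041 rat genes, with 1 row for each of the 10. By Ensembl identifier, Aqp4 is ENSRNOG00000016043, S100b is ENSRNOG00000001295, Gfap is ENSRNOG00000002919, Gja1 is ENSRNOG00000000805, Gjb6 is ENSRNOG00000022116, Aldh1l1 is ENSRNOG00000047023, Aldoc is ENSRNOG00000011452, Apoe is ENSRNOG00000018454, Sox9 is ENSRNOG00000002607 and Fgfr3 is ENSRNOG00000016818. The tissue came from adult male Sprague-Dawley rats in 2 groups of 5. The early life stress group (ELS) went through limited nesting, a paradigm that deprives the dam of bedding, from postnatal day 2 to postnatal day 9, and the control group (Con) is labelled as control only. Tissue was collected at postnatal day 91. Each group gave 5 mRNA libraries, 1 per tissue sample. Litters are not named in the sources used here. Each p-value sets a difference between groups against the spread of such samples, whether or not they share litters. The rats carry no transgene in the labels, and whole tissue was sequenced without separating cells. In such bulk RNA, fewer astrocytes and less RNA per astrocyte cannot be told apart.

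Astrocytes take up glutamate and potassium released by neurons, supply neurons with lactate and cholesterol, and line vessels with endfeet rich in water channels. They are joined into networks by gap junctions. In the cortex they are told from other cells by a small set of transcripts, no one of which is exclusive. S100b is also made by oligodendrocytes, Apoe by microglia, and Sox9 and Fgfr3 by precursor cells of glia.

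All 10 genes had a lower mean in ELS than in Con. Their median log2 fold change was -0.20, against 0.0037 over all 14642 genes tested, of which 49.4% had a lower mean. None passed an adjusted p of 0.05 (limma, Benjamini-Hochberg over all genes), where the share of all genes that passed was 0%. At an unadjusted p under 0.05, 6 of the 10 were lower (Aqp4, S100b, Aldh1l1, Gfap, Apoe and Gjb6) and 0 higher, whereas 10.3% of all genes tested were lower and 10.1% higher by that rule (20.4% in either direction). In Aqp4 and S100b all 5 ELS libraries lay below all 5 Con libraries, a pattern that held for 2.6% of all genes tested. The opposite pattern held for 0 of the 10 and for 3.08% of all genes. limma-voom on the recovered reads also called 0 of the 10 and left 6 lower at an unadjusted p under 0.05, beside 10.6% of all genes. With limma-voom and sample quality weights, Aqp4 and Aldh1l1 were lower in ELS at an adjusted p under 0.05, 2 of 10 members where 4.35% of all genes were called lower and 7.18% in either direction. The same 2 genes passed by limma without ELS replicate 2 and Con replicate 4, beside 3.92% of all genes called lower and 7.44% in either direction. Without ELS replicate 2 alone 0 of the 10 passed, beside 2.1% of all genes called lower and 3.03% in either direction. At an unadjusted p under 0.05 the members lower in ELS numbered 7 with the weights (13.5% of all genes), 6 without ELS replicate 2 (11.2%), 6 without Con replicate 4 (10.6%) and 5 without both libraries (11.9%).

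Those 2 libraries were left out together because earlier results of these data had set them apart, so the calls gained that way are no independent support for Aqp4 or Aldh1l1. Con replicate 4 differed from each other control library by a mean chi-square per gene of 40.2 to 42.8 in recovered reads, against 4.83 to 10.9 between the other controls and 2.75 to 14.9 between ELS libraries. ELS replicate 2 was the ELS library most like the controls. Its mean chi-square was 4.79 to 8.29 against Con replicates 1, 2, 3 and 5, and 6.69 to 14.9 against the other ELS libraries. In Map2, a neuronal microtubule gene, it was at 133.7 RPKM, against 78.7 to 86.7 RPKM in the other ELS libraries and 127.2 to 138.5 RPKM in Con. Other neuron markers differed. In ELS replicate 2, Syn1 was at 235.4 RPKM and Snap25 at 722.8 RPKM, above every control (up to 223.0 and 694.3 RPKM). Thy1, at 389.6 RPKM, was within the control range of 371.7 to 435.3 RPKM. Leaving it out took the number of genes called over the whole table to 440, while each other single omission gave at most 1. Library totals were 18838898 to 20998749 reads in ELS and 19676642 to 22311136 in Con. The number of reads on a member ran from 227 (Sox9 in ELS replicate 1) to 39441 (Apoe in Con replicate 4).

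To show what lies upstream of the members whose differences the account turns on, the start-site windows of Aqp4, S100b and Gfap are printed from RefSeq (build GRCr8, not the authors' build rn6). Each window holds 250 bases before and 50 after an annotated start, 5′ to 3′ on the gene's own strand. Capitals mark matches, on either strand, to TTGGC, the half-site bound by nuclear factor I proteins, to ACAAAG, a core bound by SOX proteins, or to TATAAA, the TATA box. Aqp4 had a further window, without a match to these motifs, that is not printed.
Aqp4, chr18:6797877-6798176, minus strand: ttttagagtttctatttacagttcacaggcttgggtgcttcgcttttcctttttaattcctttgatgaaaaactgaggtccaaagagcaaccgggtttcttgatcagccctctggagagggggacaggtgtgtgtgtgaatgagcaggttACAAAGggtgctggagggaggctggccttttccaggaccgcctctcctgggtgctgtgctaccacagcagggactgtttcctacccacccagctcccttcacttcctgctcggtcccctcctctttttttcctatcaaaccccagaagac
S100b, chr20:12381032-12381331, minus strand: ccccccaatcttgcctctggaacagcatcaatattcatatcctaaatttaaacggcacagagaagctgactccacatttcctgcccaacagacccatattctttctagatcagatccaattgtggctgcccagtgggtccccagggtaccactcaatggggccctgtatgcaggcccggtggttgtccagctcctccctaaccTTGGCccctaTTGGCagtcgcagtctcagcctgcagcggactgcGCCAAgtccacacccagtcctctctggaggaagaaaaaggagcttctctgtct
Gfap, chr10:88361612-88361911, minus strand: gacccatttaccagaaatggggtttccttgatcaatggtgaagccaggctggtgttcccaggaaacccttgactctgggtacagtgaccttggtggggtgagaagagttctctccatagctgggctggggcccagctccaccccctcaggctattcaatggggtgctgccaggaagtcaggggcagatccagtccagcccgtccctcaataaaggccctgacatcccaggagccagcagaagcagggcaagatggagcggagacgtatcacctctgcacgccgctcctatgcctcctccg
The Aqp4 window holds ACAAAG once, the S100b window holds TTGGC 3 times, and the Gfap window holds none of the motifs. Windows were found for 9 of the 10 members, 13 windows in all with up to 3 per gene. TTGGC was in a window of 4 of these 9 genes (S100b, Gjb6, Apoe and Fgfr3), and in 45.8% of all 33469 windows of this length. ACAAAG was in a window of 2 (Aqp4 and Gjb6) and in 18.8% of all, and TATAAA in 0, against 14.2% of all. The full palindrome of nuclear factor I, which is the half-site followed after 5 bases by its reverse complement, was in 0 members and 0.0418% of all windows. TTCNNNGAA, the core bound by STAT proteins, was in 0 members and 8.87% of all. CGCCC, found in GC boxes, was in a window of 6 members (Aqp4, Gjb6, Aldh1l1, Aldoc, Apoe and Fgfr3) and in 44.8% of all. For Aqp4 it was in the window that is not printed. These are matches of letters in short windows and say nothing of binding.

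Values are RPKM, a read count divided by the length of the gene and by the total of the library, so they can be set against each other between genes. In ELS the order was Apoe, S100b, Aldoc, Gja1, Aqp4, Gfap, Fgfr3, Gjb6, Aldh1l1 and Sox9, with means of 811.5, 477.8, 315.3, 86.5, 63.6, 58.3, 19.8, 13.9, 6.72 and 4.0 RPKM. Of the neighbours in that order, only Aqp4 and Gfap had ranges over the 5 libraries that overlapped. In Con the order was Apoe, S100b, Aldoc, Gfap, Gja1, Aqp4, Fgfr3, Gjb6, Aldh1l1 and Sox9, with means of 947.7, 537.2, 322.3, 102.0, 98.6, 80.8, 21.0, 16.1, 7.71 and 4.72 RPKM. There the ranges of Gfap, Gja1 and Aqp4 overlapped, and no other neighbours did. Apoe and S100b stood at the 99.9 and 99.8 percentiles of mean level over the table, and Sox9 at the 42 percentile. Fold changes below are ELS minus Con on the log2(RPKM + 0.1) scale, with the standard error (SE) and adjusted p of limma, and each group mean is given with its SD over 5 libraries.

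**Figure D1:**
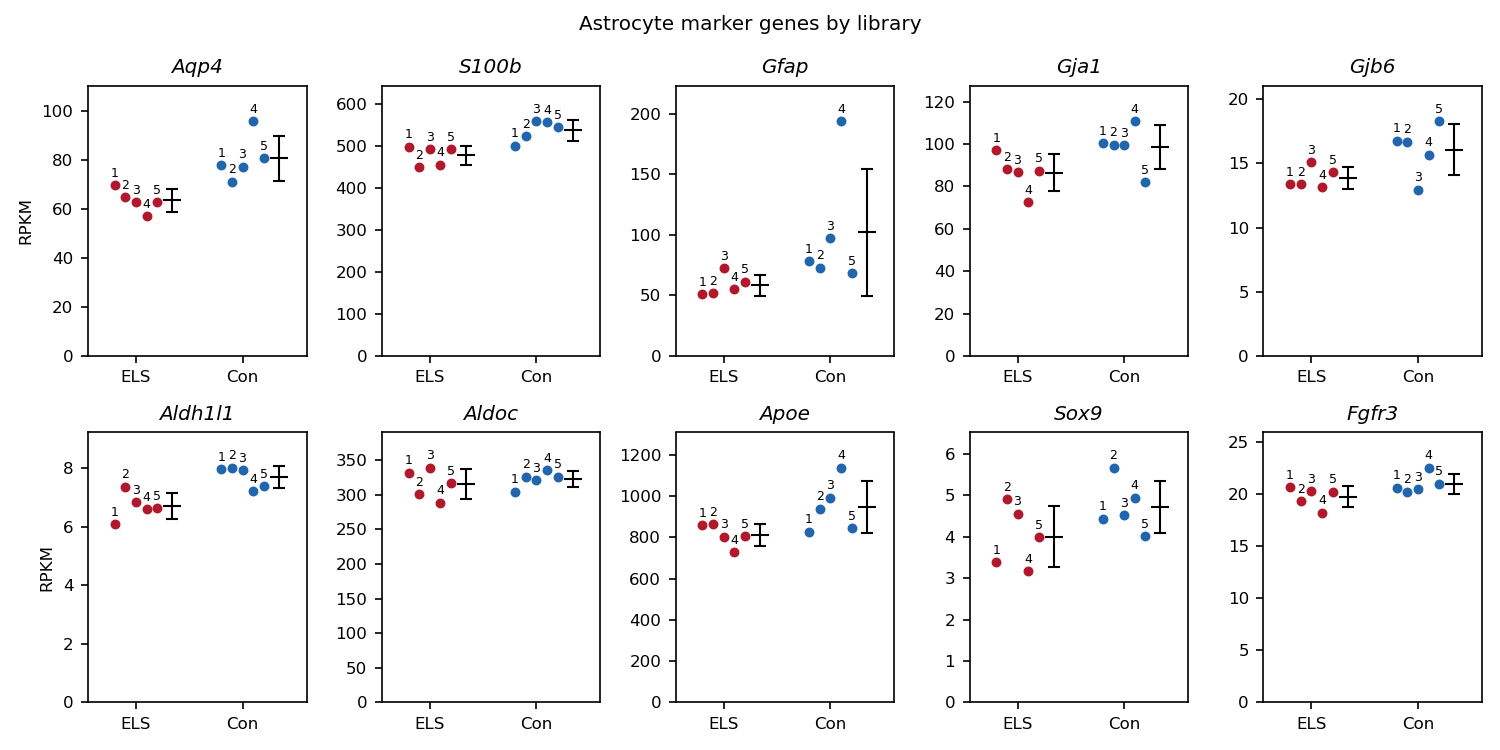
RPKM (vertical axes, from 0) of the 10 astrocyte marker genes in each ELS and Con library. Points are libraries labelled by replicate number, and bars are mean ± SD (n = 5); the ELS points of Aqp4 (57.1 to 69.9) and S100b (449.2 to 498.4) lie below every Con point.

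Aqp4 encodes aquaporin-4, the water channel of astrocyte endfeet. It was at 69.9, 65.0, 63.0, 57.1 and 62.9 RPKM in ELS replicates 1 to 5, against 78.1, 71.3, 77.5, 96.0 and 81.0 RPKM in Con replicates 1 to 5. The groups did not overlap, with the highest ELS library just under the lowest Con library. The means were 63.6 ± 4.62 RPKM in ELS and 80.8 ± 9.22 RPKM in Con, with a log2 fold change of -0.34 ± 0.08 (SE, by limma, adjusted p = 0.133). This was the lowest p of the 10 members, and it ranked 127 among all genes tested. With sample quality weights the log2 fold change was -0.28 (limma-voom, adjusted p = 0.0255), and without ELS replicate 2 and Con replicate 4 it was -0.29 (limma, adjusted p = 0.0300). Over the 20 alternatives run, its adjusted p ranged from 0.0255 to 0.293.

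S100b encodes a calcium-binding protein that astrocytes also secrete. Its levels were 498.4, 449.2, 493.1, 455.7 and 492.5 RPKM in the ELS libraries, against 500.8, 523.2, 559.3, 557.3 and 545.7 RPKM in the Con libraries. Again no ELS library reached the lowest control, though ELS replicate 1 came within a few RPKM of Con replicate 1. The log2 fold change was -0.17 ± 0.05 (SE, by limma, adjusted p = 0.133), for means of 477.8 ± 23.4 RPKM in ELS and 537.2 ± 24.9 RPKM in Con. It did not pass under any of the 20 alternatives (adjusted p of 0.0870 to 0.293).

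Gfap encodes glial fibrillary acidic protein, the intermediate filament that reactive astrocytes make in quantity. It was at 51.0, 51.9, 72.2, 55.3 and 61.3 RPKM in the ELS libraries, against 77.9, 73.0, 97.2, 193.7 and 68.3 RPKM in the Con libraries. Con replicate 4 was far above the rest, and ELS replicate 3 lay above Con replicate 5, so the groups overlapped. Its log2 fold change of -0.70 ± 0.26 was the largest of the 10 (SE, by limma, adjusted p = 0.178), with means of 58.3 ± 8.73 RPKM in ELS and 102.0 ± 52.4 RPKM in Con. Without Con replicate 4 it was -0.44 ± 0.12 (SE, by limma, adjusted p = 0.112). Within each library, the log2 ratio of Gfap to Aldh1l1 was 3.04, 2.80, 3.38, 3.05 and 3.19 in ELS, against 3.27, 3.17, 3.60, 4.73 and 3.19 in Con. The means, 3.09 ± 0.21 in ELS and 3.59 ± 0.66 in Con, differed by -0.50 (exact permutation test, two-sided, p = 0.0794, adjusted over 2 ratios p = 0.159). The difference was -0.22 without Con replicate 4 (exact permutation p = 0.159).

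Gja1 and Gjb6 encode connexin 43 and connexin 30, from which astrocytes build their gap junctions. Gja1 was at 97.1, 88.3, 86.9, 72.6 and 87.5 RPKM in ELS, against 100.6, 99.7, 99.5, 110.8 and 82.2 RPKM in Con, and Con replicate 5 fell among the ELS libraries. Its log2 fold change was -0.19 ± 0.09 (SE, by limma, adjusted p = 0.264), with a 95% interval of -0.38 to 0.01 that takes in no difference. Gjb6 was at 13.4, 13.4, 15.1, 13.2 and 14.3 RPKM in ELS, against 16.8, 16.7, 12.9, 15.7 and 18.3 RPKM in Con. Here Con replicate 3 was the lowest of all 10 libraries while the other controls lay above every ELS library. The log2 fold change was -0.20 ± 0.09 (SE, by limma, adjusted p = 0.218). Within each library, the log2 ratio of Gja1 to Gjb6 averaged 2.63 ± 0.16 in ELS and 2.61 ± 0.30 in Con, a difference of 0.02 (exact permutation test, two-sided, p = 0.921, and p = 0.921 adjusted over 2 ratios). That difference changed sign when single libraries were left out.

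Aldh1l1 and Aldoc are metabolic enzymes. Aldh1l1, the cytosolic 10-formyltetrahydrofolate dehydrogenase that labels astrocytes broadly, was at 6.11, 7.38, 6.85, 6.60 and 6.64 RPKM in ELS, against 7.97, 8.03, 7.95, 7.21 and 7.39 RPKM in Con. ELS replicate 2 alone reached into the control range, lying between Con replicates 4 and 5. The means were 6.72 ± 0.46 RPKM in ELS and 7.71 ± 0.38 RPKM in Con, with a log2 fold change of -0.20 ± 0.06 (SE, by limma, adjusted p = 0.146). Aldh1l1 passed with sample quality weights (log2 fold change -0.24, limma-voom, adjusted p = 0.0300) and without ELS replicate 2 and Con replicate 4 (log2 fold change -0.25, limma, adjusted p = 0.0351), within a range up to 0.303 over the 20 alternatives. Aldoc, the brain aldolase of glycolysis, was at 331.7, 300.5, 338.9, 288.5 and 317.0 RPKM in ELS, against 304.2, 325.8, 320.4, 335.3 and 325.8 RPKM in Con. Its groups overlapped almost wholly, and the highest and the lowest library were both from ELS. The log2 fold change was -0.03 ± 0.05, with a 95% interval of -0.14 to 0.08 (limma, adjusted p = 0.735).

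Apoe, the main lipid carrier that astrocytes secrete, was at 858.3, 864.0, 803.6, 727.9 and 803.8 RPKM in ELS, against 826.8, 938.3, 991.7, 1136.8 and 844.9 RPKM in Con. Con replicates 1 and 5 fell within the ELS range, and Con replicate 4 was the highest. The means were 811.5 ± 54.9 RPKM in ELS and 947.7 ± 125 RPKM in Con, with a log2 fold change of -0.22 ± 0.09 (SE, by limma, adjusted p = 0.201). Apoe had the highest level and the largest difference in RPKM among the 10, while the largest fold change was that of Gfap.

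Sox9 encodes a transcription factor that directs and maintains astrocyte identity, and Fgfr3 a fibroblast growth factor receptor of astrocytes and their precursors. Sox9 was at 3.39, 4.90, 4.55, 3.17 and 3.98 RPKM in ELS, against 4.44, 5.66, 4.53, 4.94 and 4.01 RPKM in Con. The ELS libraries split, with replicates 1 and 4 under every other library and replicates 2 and 3 amid the controls. The log2 fold change was -0.24 ± 0.13 (SE, by limma, adjusted p = 0.328). Fgfr3 was at 20.7, 19.3, 20.3, 18.3 and 20.3 RPKM in ELS, against 20.6, 20.3, 20.5, 22.6 and 21.0 RPKM in Con. Its groups overlapped, and the log2 fold change of -0.09 ± 0.05 (SE, by limma, adjusted p = 0.330) had a 95% interval of -0.19 to 0.02.

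**Figure D2:**
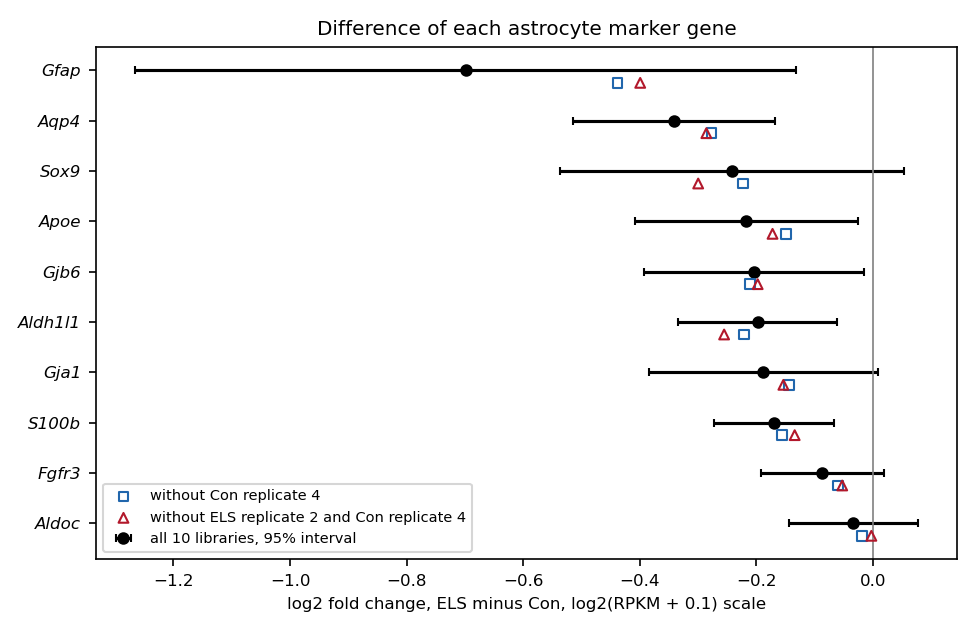
Log2 fold change (horizontal axis, ELS minus Con, on the log2(RPKM + 0.1) scale) of each astrocyte marker gene. Filled circles and bars are the limma estimate with its 95% interval over all 10 libraries, and open symbols are estimates without Con replicate 4 (squares) or without it and ELS replicate 2 (triangles); Gfap lies at -0.70 with all libraries and at -0.44 without Con replicate 4.

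Set side by side, the members followed the libraries as well as the groups. ELS replicate 4 held the lowest value of all 10 libraries in 6 of the 10 genes, and 9 of the 10 were below the lowest control there. The number below the lowest control was 5, 5, 4 and 6 in ELS replicates 1, 2, 3 and 5. At the other end, Con replicate 4 held the highest value in 5 genes (Aqp4, Gfap, Gja1, Apoe and Fgfr3). The mean over the 10 genes of the log2 level, each gene centred on its own mean, was -0.12, -0.10, -0.03, -0.25 and -0.10 in ELS replicates 1 to 5, against 0.06, 0.10, 0.10, 0.31 and 0.03 in Con replicates 1 to 5. Every ELS library was thus below every Con library in this mean, which is a description of genes chosen with earlier results known. Gfap supplied much of the peak in Con replicate 4, where it was 1.39 above its own mean while Aldh1l1 was 0.01 above its own.

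**Figure D3:**
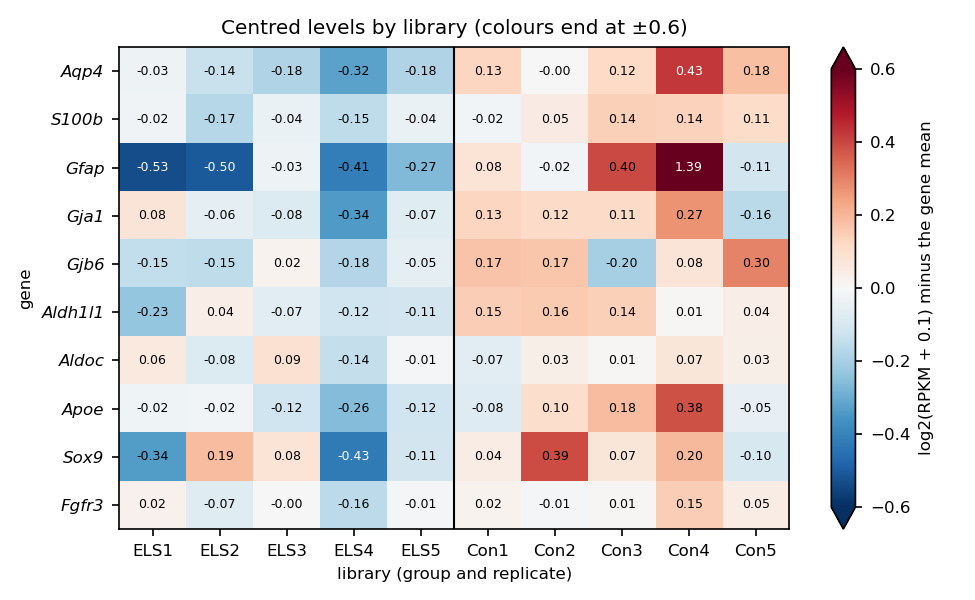
Log2(RPKM + 0.1) of each astrocyte marker gene (rows) in each library (columns, ELS left of Con), less the gene's mean over 10 libraries. Red is above and blue below that mean, and colours end at the limits of the bar; ELS4 is blue in all 10 rows and Con4 is darkest red for Gfap at 1.39.

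The genes whose pattern over the 10 libraries was most like the median of the members were Dnase1l1, Fermt2, Pnisr, Anp32b and Nif3l1. Likeness was measured as the root mean square difference between centred log2 values, and it was 0.0386 to 0.0436 for these 5, against a median of 0.197 over all genes tested. Among the members themselves S100b was nearest to that median at 0.0546 and Gfap farthest at 0.458. Fermt2, which encodes the integrin activator kindlin-2, was at 24.8 ± 1.04 RPKM in ELS and 28.7 ± 1.45 RPKM in Con, with a log2 fold change of -0.20 ± 0.05 (SE, by limma, adjusted p = 0.133). These 5 genes were picked by likeness over the same libraries, so a lower mean in ELS follows from the choice and is no separate result.

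Lists of related genes were read in the same fit, and 0 of their 249 tested rows passed an adjusted p of 0.05 by limma or by limma-voom without weights. Of 42 other astrocyte genes, 38 had a lower mean in ELS and the median change was -0.17 (log2). Without Con replicate 4 the count was again 38, and without it and ELS replicate 2 it was 37. With both left out, 6 of the 42 were lower at an adjusted p under 0.05 by limma, Megf10 and Fabp7 among them. Of all genes, 3.92% were called lower in that setting. It was chosen with earlier results known, so these calls are no independent support either. At an unadjusted p under 0.05 by limma with all libraries, 20 of the 42 were lower and 0 higher, beside 10.3% and 10.1% of all genes tested. In 7 the ELS libraries all lay below the Con libraries, beside 2.6% of all genes. The same shares apply to such counts in the lists below. Fabp7, a fatty acid binding protein of immature and adult astrocytes, was at 26.5 ± 4.03 RPKM in ELS and 47.3 ± 12.7 RPKM in Con (log2 fold change -0.81 ± 0.16, SE, by limma, adjusted p = 0.133). Megf10, a receptor with which astrocytes engulf synapses, was at 2.88 ± 0.20 RPKM in ELS and 4.06 ± 0.50 RPKM in Con (log2 fold change -0.48 ± 0.09, SE, by limma, adjusted p = 0.133). Not all followed, and the abundant matricellular gene Sparcl1 was at 597.6 ± 48.8 RPKM in ELS and 585.6 ± 65.9 RPKM in Con. Cst3, a secreted protease inhibitor, was at 805.7 ± 68.4 RPKM in ELS and 914.2 ± 54.2 RPKM in Con.

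Around the endfoot, 9 of 12 genes that anchor Aqp4 or lie beside it had a lower mean, with a median log2 fold change of -0.05 (-0.09 without Con replicate 4, with 8 of 12 lower). At an unadjusted p under 0.05, 2 were lower and 1 higher by limma, beside 10.3% and 10.1% of all genes. Mlc1, Hepacam and Kcnj10 are also among the other astrocyte genes above, so the lists are not independent. Mlc1, a membrane protein of endfoot contacts, was at 58.6 ± 5.22 RPKM in ELS and 69.5 ± 6.29 RPKM in Con. Its groups did not overlap only by a hair, with ELS replicate 1 at 63.006 RPKM and Con replicate 1 at 63.0087 RPKM. Kcnj10, the potassium channel found with Aqp4, was at 29.3 ± 2.81 RPKM in ELS and 32.0 ± 3.32 RPKM in Con. Among 8 connexin genes of other cells the median was -0.25, or -0.15 without ELS replicate 1, and the oligodendrocyte connexin gene Gjb1 had a log2 fold change of -0.63 ± 0.15 (SE, by limma, adjusted p = 0.133). Reactive astrocyte genes beside Gfap had a lower mean in 12 of 15 tested, with a median of -0.20. By limma, 1 was lower at an unadjusted p under 0.05, beside 10.3% of all genes. The filament gene Vim was at 23.6 ± 3.47 RPKM in ELS and 26.2 ± 8.20 RPKM in Con, and Stat3, a transcription factor of astrocyte reactivity, at 12.6 ± 0.87 RPKM in ELS and 11.5 ± 1.35 RPKM in Con.

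The metabolic partners of Aldoc and Aldh1l1 lay on opposite sides. Of 20 tested rows of glycolysis genes, 18 had a higher mean in ELS (median log2 change 0.15), and 12 were higher and 1 lower at an unadjusted p under 0.05. Aldoa, the aldolase of most cells, was at 638.0 ± 40.4 RPKM in ELS and 567.8 ± 31.9 RPKM in Con, with a log2 fold change of 0.17 ± 0.06 (SE, by limma, adjusted p = 0.157). The pyruvate kinase gene Pkm had 2 rows in the table, so its reads may be split. Of 16 genes of one-carbon and serine metabolism, 12 had a lower mean, with a median of -0.14, and 5 were lower and 0 higher at an unadjusted p under 0.05. Psat1, an enzyme of serine synthesis, was at 28.5 ± 2.74 RPKM in ELS and 34.9 ± 2.90 RPKM in Con, with no overlap between groups.

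For lipoprotein transport, the pathway of Apoe, 14 of 15 genes had a lower mean with a median of -0.09, and 4 were lower and 0 higher at an unadjusted p under 0.05. Apod, another lipid carrier, was at 47.0 ± 6.18 RPKM in ELS and 68.0 ± 13.5 RPKM in Con, and Abca1, the exporter that loads lipid onto Apoe, at 2.5 ± 0.28 RPKM in ELS and 3.45 ± 0.60 RPKM in Con. Clu, the gene of highest level in this list, which leaves out Apoe, was at 310.6 ± 20.9 RPKM in ELS and 320.9 ± 17.7 RPKM in Con. Clu and Lcat are also among the other astrocyte genes. Among 13 tested transcription factors and Notch genes of gliogenesis, 12 had a lower mean with a median of -0.28, and 7 were lower and 0 higher at an unadjusted p under 0.05. Nfia, which with Sox9 starts astrocyte formation in mouse, was at 4.83 ± 1.23 RPKM in ELS and 7.38 ± 0.94 RPKM in Con. Sox2 was at 13.2 ± 2.05 RPKM in ELS and 16.2 ± 1.07 RPKM in Con.

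FGF signalling genes were mixed, with 11 of 19 rows lower in mean and a median of -0.05 that was 0.02 without ELS replicate 2. The rows cover 18 genes, since Grb2 had 2 rows. At an unadjusted p under 0.05, 2 rows were lower and 3 higher by limma, beside 10.3% and 10.1% of all genes. Fgfr2, the receptor related to Fgfr3, was at 11.1 ± 0.47 RPKM in ELS and 14.8 ± 1.59 RPKM in Con (log2 fold change -0.40 ± 0.07, SE, by limma, adjusted p = 0.133), while Etv5, a transcription factor induced by FGF, was at 24.8 ± 3.07 RPKM in ELS and 18.2 ± 5.02 RPKM in Con. Of 9 other S100 family and receptor genes 8 had a lower mean, with a median of -0.32, and 6 were lower and 1 higher at an unadjusted p under 0.05. S100a16 was at 21.9 ± 1.65 RPKM in ELS and 28.8 ± 2.90 RPKM in Con, and S100a4 at 1.45 ± 0.43 RPKM in ELS and 3.01 ± 0.86 RPKM in Con. The S100a4 values rest on few reads, 14 to 27 per library in ELS and 30 to 65 in Con.

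**Figure D4:**
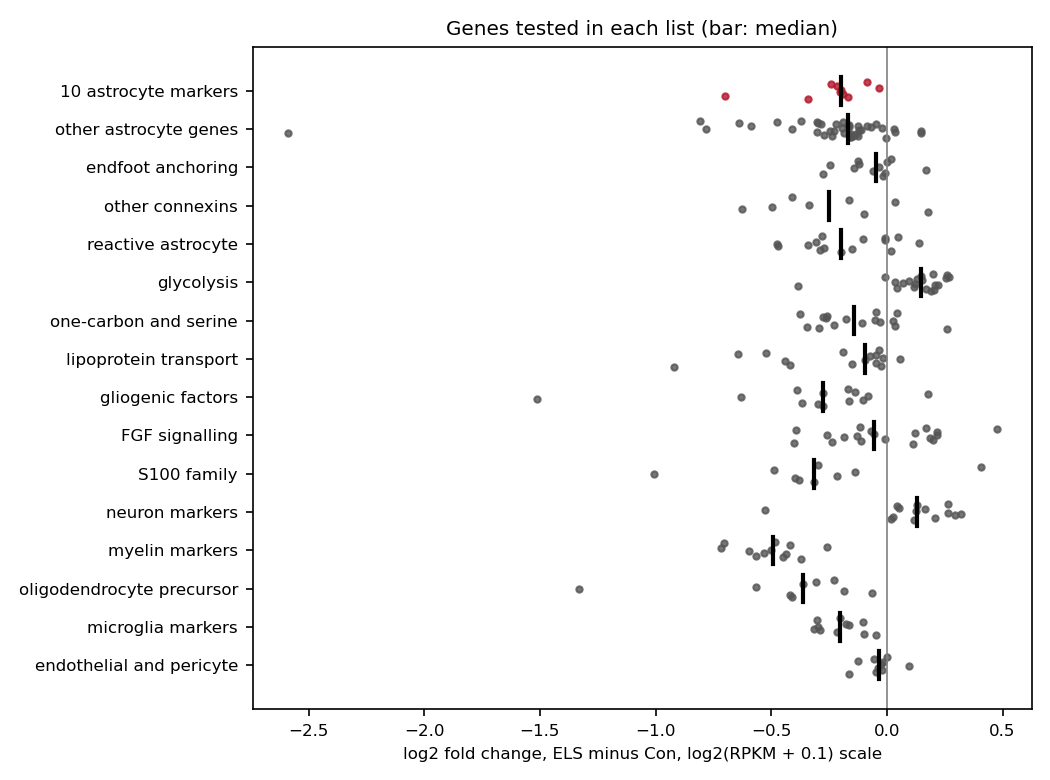
Log2 fold change (horizontal axis, ELS minus Con, on the log2(RPKM + 0.1) scale) of every tested gene in each list drawn (rows). The meningeal and smooth muscle, ependymal and choroid, blood, striatal, and Bergmann and radial glia lists are not drawn. Each point is a gene, with a point for each Ensembl identifier of Pkm and Grb2, and each bar is the list median. The 10 astrocyte markers have a median of -0.20, glycolysis a median of 0.15 and myelin a median of -0.49.

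Markers of other cells also had unequal means in the groups, none past an adjusted p of 0.05 with all libraries by limma without weights, and their part in the astrocyte values was not tested. At an unadjusted p under 0.05, limma had 12 of 12 myelin, 7 of 9 precursor and 6 of 11 microglia markers lower, beside 10.3% of all genes. With sample quality weights, limma-voom called 7, 5 and 3 of these lower at an adjusted p under 0.05, beside 4.35% of all genes. It called 6 of 14 neuron markers, with Map2 lower, beside 7.18% of all genes in either direction. All 12 myelin and oligodendrocyte markers had a lower mean, also without Con replicate 4, with a summed level of 880.8 to 1148.9 RPKM in ELS and 1171.7 to 2391.1 RPKM in Con. The highest of these sums was in Con replicate 4, the library where Gfap was highest. Oligodendrocyte precursor markers were lower in 9 of 9 means (sum 65.4 to 83.6 RPKM in ELS and 89.8 to 111.3 RPKM in Con), and microglia markers in 11 of 11 (194.2 to 241.7 RPKM in ELS and 223.2 to 271.8 RPKM in Con). Neuron markers had a higher mean in 13 of 14, all but Map2, and a lower one in 3 without Con replicate 4, with a sum of 2892 to 3270.5 RPKM in ELS and 2554 to 2863 RPKM in Con. Eno2 is in this list and in the glycolysis list. The 10 astrocyte markers themselves summed to 1698 to 1950.0 RPKM in ELS and 1938 to 2480.3 RPKM in Con.

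Vessel, blood and neighbouring-tissue markers are given by their sums too. Endothelial and pericyte markers were lower in 9 of 10 means (116.9 to 137.0 RPKM in ELS and 111.4 to 137.7 RPKM in Con), but in 4 of 10 without Con replicate 1, and in 6 of 10 without ELS replicate 2 or without Con replicate 5. Meningeal and smooth muscle markers were lower in 5 of 8 tested, with sums of 38.5 to 46.1 RPKM in ELS and 31.5 to 64.5 RPKM in Con, and in 4 of 8 without Con replicate 1. Ependymal and choroid markers summed to 10.2 to 12.5 RPKM in ELS and 10.6 to 45.7 RPKM in Con, the highest being Con replicate 4. Ttr, the choroid plexus transthyretin gene, which did not pass the filter, made up 31.1 RPKM of that library's sum, and without Ttr the sums were 9.17 to 12.5 RPKM in ELS and 10.3 to 14.6 RPKM in Con. The blood markers were lower in 4 of 4 rows, which cover 3 genes (213.8 to 438.0 RPKM in ELS and 411.5 to 981.0 RPKM in Con). Their median log2 change of -1.07 was the lowest of any list. By limma all 4 rows were lower at an unadjusted p under 0.05, beside 10.3% of all genes. Striatal markers were lower in 7 of 9 (109.4 to 122.9 RPKM in ELS and 60.4 to 220.2 RPKM in Con). The striatal count rests on Con replicate 1, without which 2 of 9 were lower and the median log2 change was 0.29. Leaving out Con replicate 4 moved these lists the other way. Striatal markers were then lower in 8 of 9 (median -0.35), meningeal and smooth muscle markers in 7 of 8 (median -0.27). Endothelial and pericyte markers were lower in 8 of 10, with a median of -0.12 against -0.03 with all libraries. Markers of Bergmann and radial glia, astrocyte-related cells that share Fabp7 with the list above, were lower in 5 of 6 (100.6 to 116.0 RPKM in ELS and 119.3 to 156.2 RPKM in Con). By limma, 4 of these 6 were lower and 0 higher at an unadjusted p under 0.05. By that rule 1 of 4 tested ependymal and choroid markers was lower. It marked 0 in either direction among endothelial and pericyte, meningeal and smooth muscle, and striatal markers. No marker analysed in any of these lists was at 0 in every library.

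**Figure D5:**
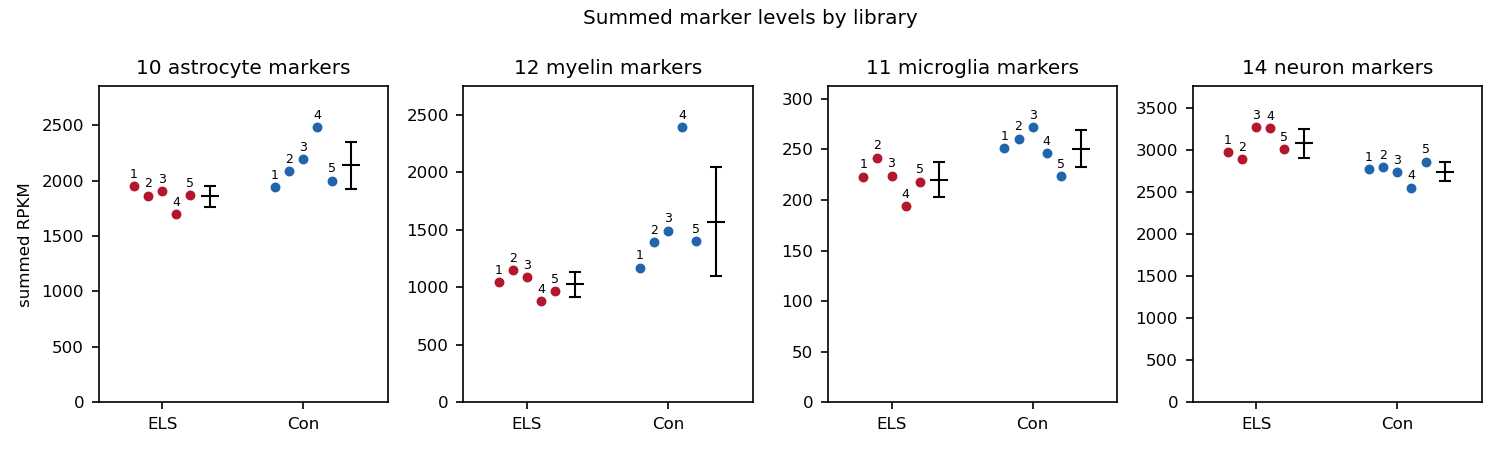
Summed RPKM (vertical axes, from 0) of the markers of astrocytes, myelin, microglia and neurons in each ELS and Con library. Points are libraries labelled by replicate number, and bars are mean ± SD (n = 5); the myelin sum of Con replicate 4 is the highest at 2391.1, and all ELS sums of neuron markers, from 2892 upward, exceed those of Con.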

How the data were processed

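The authors deposited 1 table of RPKM values for 10 libraries (reads or fragments is not specified, and RPKM stands for both). Per the submitters' processing notes, STAR, featureCounts and the rat build rn6 were used, without versions. Alignment and counting options, strand use included, the annotation release and the rule for listing genes were not found in the sources used here, so reads of overlapping or antisense neighbours could be shared. Per the labels' protocols, the library kit keeps strand and selects mRNA. Within a gene the values are whole multiples of 1 read, which gave whole reads for 16015 rows, 100% of those above 0, with a tolerance of 0.002 reads. The table holds 0 columns of other samples.

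A pseudocount of 0.1 RPKM was added before taking log2. Genes reaching 0.5 RPKM in 5 libraries were kept, which left 14642 and removed 1399. All 10 members passed. limma 3.58.1 (R 4.3.3), with trend and robust moderation, fitted ELS against Con, two-sided, with Benjamini-Hochberg adjustment over all genes. The median SE of a log2 fold change was 0.0976. The procedure was tested on simulated data. Log2 ratios of 2 pairs of members were compared by exact permutation over 252 assignments, where the smallest p is 0.00794. Promoter windows came from RefSeq.

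Members and lists were chosen with earlier results of these data known. All members are named, and in each other list the 2 genes of lowest p and the 2 of highest mean could be named. A gene that met this rule is not reported here. Alternatives were the pseudocount, filter, scaling, moderation, limma-voom on recovered reads with and without sample weights, omitted libraries and a replicate block.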

Additional observations from a re-analysis of the deposited data

Results flagged for a closer look

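In 24 sets of 5 libraries (10 genes and 2 ratios in each group), 2 held a library whose gap to its nearest neighbour was a larger share of the group's range than Dixon's 95% limit of 0.71 for 5 values. Chance marks about 1 set in 20. Both concern Gfap in Con replicate 4. Its gap was 0.77 of the range of Gfap levels in Con, with 193.7 RPKM there and 68.3 to 97.2 RPKM in the other 4 controls. For the log2 ratio of Gfap to Aldh1l1 the gap was 0.726 of the range in Con, with 4.73 in that library and 3.17 to 3.60 in the others. The same library had the highest summed levels of myelin markers (2391.1 RPKM) and of ependymal and choroid markers (45.7 RPKM, of which Ttr was 31.1 RPKM), and the part of these in the Gfap value was not tested.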

How the results depend on the processing

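Over 20 alternatives each of the 10 genes kept a lower mean in ELS, though Aldoc was at only -0.002 (log2) without ELS replicate 4. Changing the filter or moderation, or adding the replicate block, could not move these estimates, so those signs were fixed in advance. Of 200 values, 196 stayed on their side of the adjusted threshold. The other 4 were Aqp4 and Aldh1l1, which passed with sample quality weights and without ELS replicate 2 and Con replicate 4. With sample quality weights limma-voom called 1051 genes in all, 2 members and 49 rows of the related lists, with a weight of 0.174 for Con replicate 4. Without ELS replicate 2 and Con replicate 4 the counts were 1071, 2 and 44. Leaving out 1 library at a time gave 0 to 440 genes in all, 0 members, and 0 to 19 rows of the lists, the highest being without ELS replicate 2. The count of members at an unadjusted p under 0.05 was 4 to 7: 4 without ELS replicate 4 (7.8% of all genes were lower by that rule), and 7 with upper-quartile scaling (11.8%) or the weights (13.5%). The ratio of Gja1 to Gjb6 differed by -0.0967 to 0.0961 when 1 library was left out, with the sign turned without ELS replicate 1 (-0.0394), ELS replicate 2 (-0.0065) or Con replicate 5 (-0.0967), and the cause was not tested. Upper-quartile scaling shifted the median of all genes to -0.01 and left all 10 members lower. With the replicate number as a block, 0 genes were called in all and 4 members had an unadjusted p under 0.05, beside 9.61% of all genes lower. Same-numbered libraries had correlations of -0.08 to 0.07 in their deviations from group means. Only ELS replicates 2 and 5 correlated best with the control of their own number. Such correlations over so few libraries cannot settle whether the replicate numbers pair the samples. Sox9 had the fewest reads of the members, from 227 per library, so its values carry the most counting error.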
